A study of Rattus norvegicus with 15 samples.

Results

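The comparison set adult rat cardiomyocytes that had met doxorubicin (DOX) for 6 h in a dish directly against cardiomyocytes isolated from rats made heart-failing by repeated DOX injections. It covered 6 of the 15 lanes of the series, 3 per exposed group, chosen by their labelled treatment. DOX, an anthracycline chemotherapy drug, injures the heart. MicroRNAs (miRNAs) were counted with the nCounter assay, which ligates a tag to each miRNA and counts the tagged molecules singly through coloured barcodes. All groups were adult Sprague Dawley rat cardiomyocytes plated on laminin for 1 h, so that only attached, viable cells gave RNA. The in vitro DOX group consisted of healthy cardiomyocytes in M199 medium with DOX for 6 h, and its control received saline vehicle for the same 6 h. The in vivo DOX group came from injected rats, and its age-matched controls were cardiomyocytes of healthy rats that spent the same time on laminin. The labels used here state no DOX dose, number of injections, genotype or animal age beyond adult. Whether the 3 samples per group were separate animals, cultures or pools is not stated either, so p-values here reflect only sample-to-sample spread, which may be technical.

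A mature miRNA guides an Argonaute protein to mRNAs that pair with its seed, bases 2 to 8, and lowers their translation and stability. In heart muscle a few miRNAs dominate, among them miR-1, miR-133 and miR-499, while others are known mainly from the endothelial cells, fibroblasts and leukocytes that surround the muscle cells. DOX intercalates into DNA, poisons topoisomerase II and causes oxidative stress, and its injury of the heart can be acute or can build up over repeated doses.

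The 6 miRNAs that differed between the exposed groups are shown first, because the results below turn on them. The letters are mature RNA sequences from RefSeq, build GRCr8, with the seed in capitals.
miR-1224: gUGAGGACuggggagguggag
miR-126: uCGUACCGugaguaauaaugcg
miR-199a-3p: aCAGUAGUcugcacauugguua
miR-146a: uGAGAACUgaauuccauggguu
miR-450a: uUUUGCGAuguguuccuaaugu
miR-1949: uAUACCAGgaugucagcauaguu
The 6 miRNAs had 6 different seeds, so no seed was shared among them. On GRCr8, miR-1224 lies at chr11:93811355-93811375 on the minus strand within the annotated bounds of Vwa5b2. The locus of miR-126 is chr3:29813219-29813240 on the plus strand within Egfl7, and that of miR-199a-3p is chr13:77116294-77116315 on the plus strand within Dnm3. The locus of miR-1949 is chr18:27429753-27429775 on the plus strand within Matr3. The position of miR-146a is chr10:28350053-28350074 on the minus strand, overlapping an lncRNA gene. The position of miR-450a is chrX:137720985-137721006 on the minus strand, with no overlapping gene in the table used. The panel names carry no arm for some miRNAs, and each was matched to the RefSeq arm that bore that name first.

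Total counts over the 420 rat miRNA probes were 71522 to 104987 per lane in the group treated in culture and 54608 to 133965 in the injected group. The range was 122854 to 137746 for vehicle and 36977 to 62663 for age-matched controls. Lane background was set at 2 SD above the mean of the 8 negative-control probes. By that measure 64 miRNAs lay above background in all 6 exposed lanes, 41 in 1 to 5 of them and 315 in none. The model tested the 109 miRNAs above background in at least 3 of all 15 lanes. The 3 in vitro DOX lanes were read on another cartridge (stage position 3) than all the other lanes (stage position 4), so cartridge and group cannot be told apart in any difference that involves in vitro DOX. Vehicle and age-matched control lanes share stage position 4, but that position alone does not show that they share a cartridge. Beside the miRNAs, the log2 difference between the exposed groups over the 4 housekeeping mRNAs ran from -0.64 for Rpl19, whose lanes did not overlap, to 0.38 for Actb. The 5 foreign spike-in probes were above background in 0 of the 6 exposed lanes.

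One lane in each exposed group stood apart. Chi-square per degree of freedom, taken over the probes, was 1.85 between in vitro DOX samples 1 and 2, but 42.2 and 36.9 between sample 3 and those samples. It was 31.6 and 18.4 between in vivo DOX sample 1 and the other samples of its group, which differed from each other by 4.79. Among vehicle samples it was 1.60 to 1.74 and among age-matched controls 1.56 to 1.89. The same lanes held the most miRNA counts per positive-control count, 7.27 for in vitro DOX sample 3 against 4.13 and 3.10, and 7.72 for in vivo DOX sample 1 against 4.58 and 2.50. The part of RNA input in the results was not tested. The direct difference and the difference of DOX effects were also fitted without these lanes. The changes of each exposed group against its own control were fitted over all lanes only, so they rest on these lanes too.

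Of 109 miRNAs, 6 differed between the exposed groups at an adjusted p under 0.05, which is 5.5% of those tested. In the cells exposed in culture 5 were higher (4.59% of those tested) and 1 was lower (0.917%). They were miR-1224, miR-126, miR-146a, miR-199a-3p and miR-450a, all higher after DOX in culture, and miR-1949, which was lower. An unadjusted p under 0.05 was reached by 16. The lanes of the groups did not overlap for 13 miRNAs (11.9%), the 6 called among them, with 9 higher and 4 lower in culture. Levels are normalized CPM, the counts scaled by TMM and set relative to the lane's miRNA counts. The median log2 difference over all 109 was 0.01 and the median size was 0.35. For 50 of the 109 (45.9%) the 95% interval of the difference excluded a 2-fold change in either direction. The fit shared its spread with lanes of other groups that varied less. A fit of the exposed groups alone kept 2 of the 6 calls, miR-1224 and miR-126. Scaling by the positive controls or by the housekeeping mRNAs in place of TMM kept 1, miR-1224. The differences themselves stayed near their size, and with positive-control scaling they were -1.03 for miR-1949, 1.00 for miR-450a, 1.06 for miR-146a and 1.27 for miR-126.

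**Figure D1:**
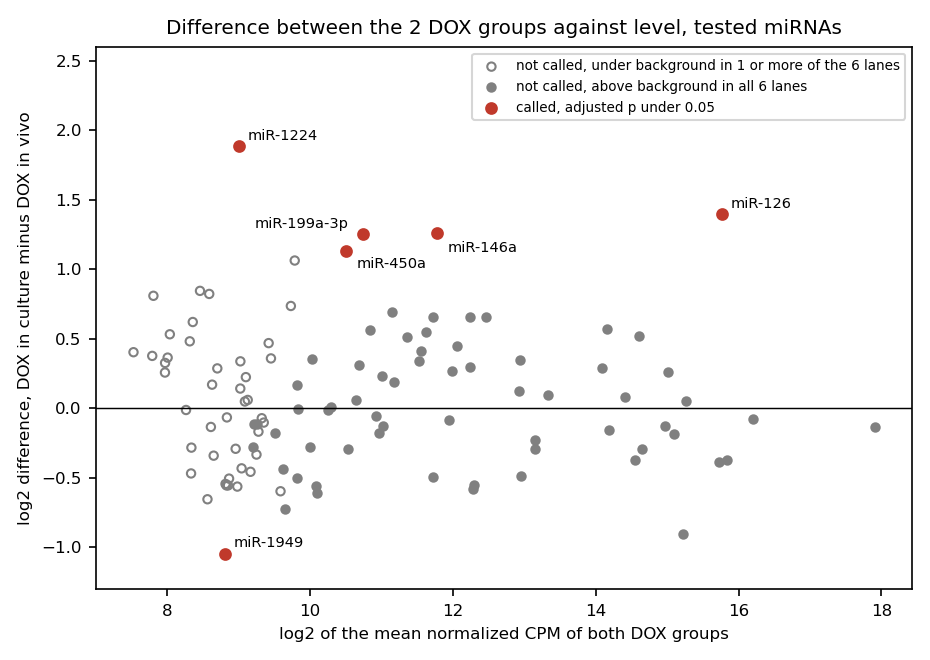
Each point is 1 of the 109 tested miRNAs, with the log2 difference (DOX in culture minus DOX in vivo) against the log2 of the mean normalized CPM of both groups. The 6 called miRNAs (red) range from -1.04 to 1.88, and the median of all points is 0.01.

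The largest difference in the count model was that of miR-1224, known in mammals as a mirtron, a hairpin made by splicing rather than by Drosha. Its normalized CPM were 898, 917 and 633 after DOX in culture and 224, 261 and 166 after DOX in vivo. All culture lanes exceeded every in vivo lane, and miR-1224 was the 1 miRNA above background in all 3 culture lanes and in none of the in vivo lanes. The log2 difference was 1.88 (SE 0.30, 3.69-fold, edgeR adjusted p = 0.000101, n = 3 per group). Because the in vivo level was not above background, the size depends on how background is treated, and it was 3.40 after the mean negative-control count was subtracted from every count. The means of the controls lay between those of the exposed groups, with 412, 496 and 476 CPM in vehicle and 303, 413 and 234 in age-matched controls. The age-matched control lanes, like the in vivo DOX lanes, were all at or below background. A change with DOX in vivo could therefore not be measured. The fitted difference of the DOX effects rests on those lanes, so its size is uncertain. It was 1.35 (adjusted p = 0.185) over all lanes and 1.51 (adjusted p = 0.0183) without in vitro DOX sample 3. Against vehicle, miR-1224 rose with DOX in culture (log2 0.82, adjusted p = 0.0207).

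Of the other 4 miRNAs that were higher in culture, 3 stand on lists of non-muscle cells, which were chosen with earlier results of these data known. Called higher were 1 of 1 tested endothelial miRNA, 1 of 5 fibroblast-associated, 0 of 2 smooth muscle and 1 of 2 leukocyte miRNAs. Of all tested miRNAs, 4.59% were called higher. The endothelial miRNA miR-126, made from an intron of Egfl7, read 92753, 70925 and 79430 CPM after DOX in culture and 39485, 30541 and 22364 after DOX in vivo. The lowest culture lane was well above the highest in vivo lane. The difference was 1.40 on the log2 scale (SE 0.31, 2.63-fold, adjusted p = 0.0038). It was the same way round without DOX, where vehicle lanes read 66721 to 70808 CPM and age-matched controls 20104 to 22102. Leaving out in vivo DOX sample 3 ended the call for miR-126 (log2 1.21, adjusted p = 0.0723).

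The fibroblast-associated miR-199a-3p, which drives division of neonatal rat cardiomyocytes when it is added to them, read 2818, 2318 and 2110 CPM in culture and 961, 1289 and 781 in vivo. The groups did not overlap, and the log2 difference was 1.25 (SE 0.27, adjusted p = 0.0038). Against its own controls miR-199a-3p was at 0.69 with DOX in culture (edgeR adjusted p = 0.0455) and at 0.83 with DOX in vivo (adjusted p = 0.0847). Its sister arm miR-199a-5p, above background in 1 of the 6 lanes, differed by 0.82 (95% interval 0.15 to 1.49, adjusted p = 0.192). The other tested members of that list were at 0.19 for miR-21, 0.36 for miR-152 and 0.36 for miR-10a-5p, none of them called, and miR-214 was above background in none of the 6 lanes.

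From the leukocyte list, miR-146a, which NF-kB induces and which represses Traf6 and Irak1, read 6904, 5032 and 2934 CPM in culture and 2332, 2084 and 1778 in vivo. The groups did not overlap, although culture sample 3 lay close to the highest in vivo lane. The log2 difference was 1.26 (SE 0.34, adjusted p = 0.026). The call was lost without in vitro DOX sample 1 (0.94, adjusted p = 0.213), without in vivo DOX sample 2 (1.26, adjusted p = 0.0937) and without in vivo DOX sample 3 (1.16, adjusted p = 0.112). The other tested member, miR-150, was spread widely, with 32534, 28100 and 4682 CPM in culture and 11177, 21668 and 11132 in vivo, and did not pass (adjusted p = 0.599).

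The labels call the cells pure cardiomyocytes. Of the muscle miRNAs, miR-499, miR-133b, miR-133a and miR-1 were above background in all 6 exposed lanes. The probe of miR-208 was above it too, but it is 1 of 3 probes that the authors marked for a background of their own, and their correction took it to 1, its lowest value, in all 15 lanes. Its level is therefore not described further. The 3 marked probes are among the 64 above background in all exposed lanes. The markers of other cells were partly absent: miR-142-3p, miR-142-5p and miR-223 of leukocytes, miR-451 and miR-144 of red cells, and miR-124, miR-9, miR-122 and miR-375 of brain, liver and islet were above background in none of the 6 lanes. The summed CPM of the tested fibroblast-associated miRNAs was 6038 to 8389 in culture and 3971 to 6330 in vivo, which overlap. The smooth muscle miRNAs miR-143 and miR-145 summed to 47501 to 98692 CPM in culture and 54900 to 104746 in vivo, also overlapping. Their log2 differences were 0.01 and -0.08 with intervals inside 2-fold. Those intervals share the spread of lanes of other groups, which varied less. Single lanes of miR-143 ran from 764 to 1879 CPM in culture and from 713 to 1803 in vivo. In bulk RNA, fewer cells of a type and less RNA per cell cannot be told apart. The part of other cell types in the differences of miR-126, miR-199a-3p and miR-146a was not tested.

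The miRNA miR-450a belongs to an X-linked cluster with miR-322. It read 2099, 2013 and 1919 CPM in culture and 1202, 878 and 631 in vivo. The culture lanes were tightly grouped and all above the in vivo lanes. It was above background in all 3 culture lanes and in 2 of the 3 in vivo lanes. The log2 difference was 1.13 (SE 0.31, adjusted p = 0.026). Leaving out in vitro DOX sample 1 (1.10, adjusted p = 0.0845), in vivo DOX sample 2 (1.10, adjusted p = 0.111) or in vivo DOX sample 3 (0.94, adjusted p = 0.14) ended the call. Its neighbour miR-322, of the miR-15 family, read 2537, 1936 and 3968 CPM in culture and 2676, 1454 and 1047 in vivo, so that its lanes overlapped. The difference of miR-322 was 0.69 (95% interval -0.08 to 1.47, adjusted p = 0.308).

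The miRNA miR-1949 was lower after DOX in culture, with 292, 217 and 372 CPM against 689, 521 and 615 in vivo. No culture lane and 2 of the 3 in vivo lanes lay above background, so the culture level cannot be told from background. The log2 difference was -1.04 (SE 0.31, adjusted p = 0.0467), the closest of the 6 to the threshold. After subtraction of the negative-control mean the difference of miR-1949 was -1.77 and was not called (adjusted p = 0.103). Its controls ran the other way, at 1829, 1744 and 1619 CPM in vehicle and 550, 397 and 301 in age-matched controls. Leaving out any 1 exposed lane other than in vitro DOX sample 3 ended the call of the direct difference, with adjusted p of 0.084 to 0.164.

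**Figure D2:**
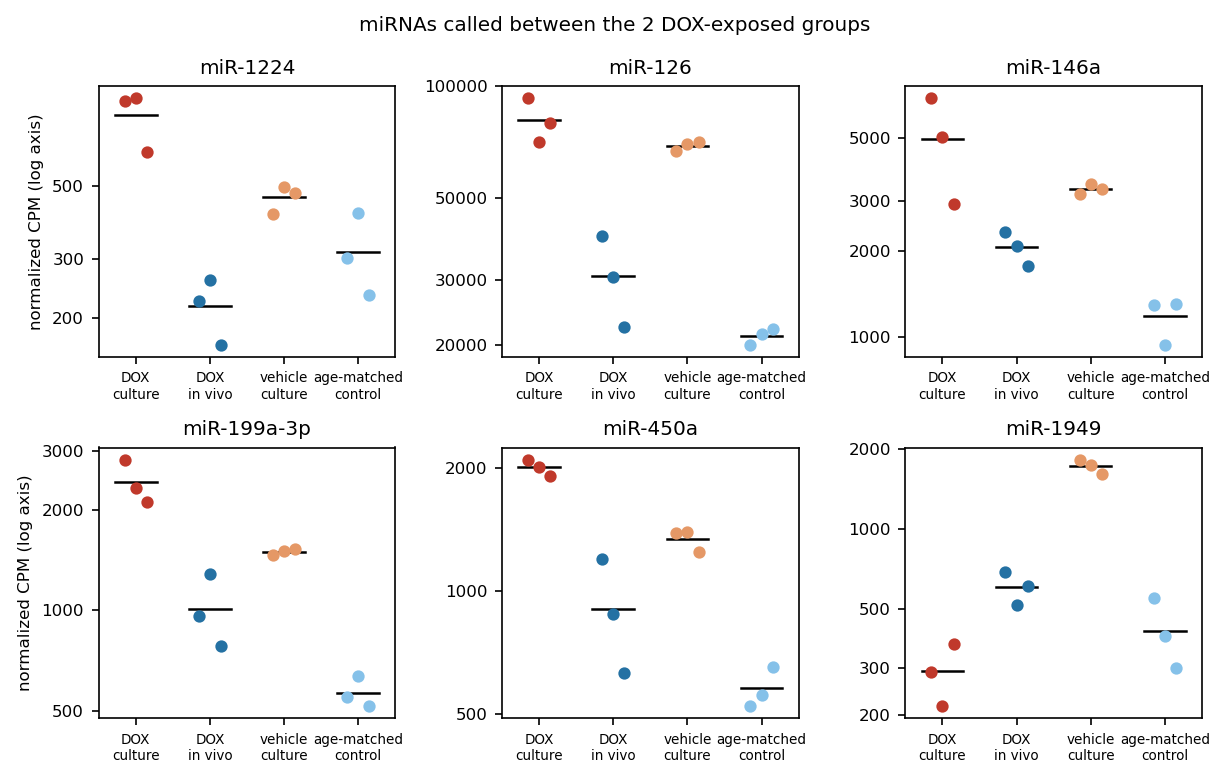
Normalized CPM on a log axis in each lane of the exposed groups and their controls for the 6 called miRNAs, with the group mean as a line. Culture lanes exceed in vivo lanes in 5 panels, and for miR-1949 they lie below, at 217 to 372 against 521 to 689 CPM.

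The comparison of vehicle with age-matched controls showed how the settings differed without DOX. It compares none of the exposed lanes, but its calls rest on a spread shared with them. A fit of the control groups alone called more miRNAs. In the shared fit 20 miRNAs were called (18.3%), with 9 higher in vehicle (8.26%) and 11 lower (10.1%). This split depended on scaling, being 16 higher and 0 lower with positive-control scaling, 3 and 25 with housekeeping scaling, 9 and 1 with RLE factors and 13 and 6 in DESeq2. Positive-control scaling moved the median of all log2 differences between the controls from -0.11 to 0.67 and housekeeping scaling moved it to -0.48. Of the 6 miRNAs called between the exposed groups, 5 (83.3%) were among these 20, which is 25% of the 20. Of these 5, 4 had the same sign, with log2 differences between the controls of 1.70 for miR-126, 1.49 for miR-146a, 1.39 for miR-199a-3p and 1.21 for miR-450a. For miR-1949 the sign was opposite, at 2.09 between the controls.

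Over all 109 miRNAs, 84 (77.1%) had the same sign in both comparisons, and so did 18 of the 20 called between the controls. Pearson's r of the log2 differences across miRNAs was 0.57 and Spearman's rho 0.60, and r was 0.70 over the 64 miRNAs above background in all 6 exposed lanes. Without miR-1949, left out after its values were seen, r was 0.68. These values describe miRNAs, which are not independent replicates, and the lanes of the comparisons are separate.

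**Figure D3:**
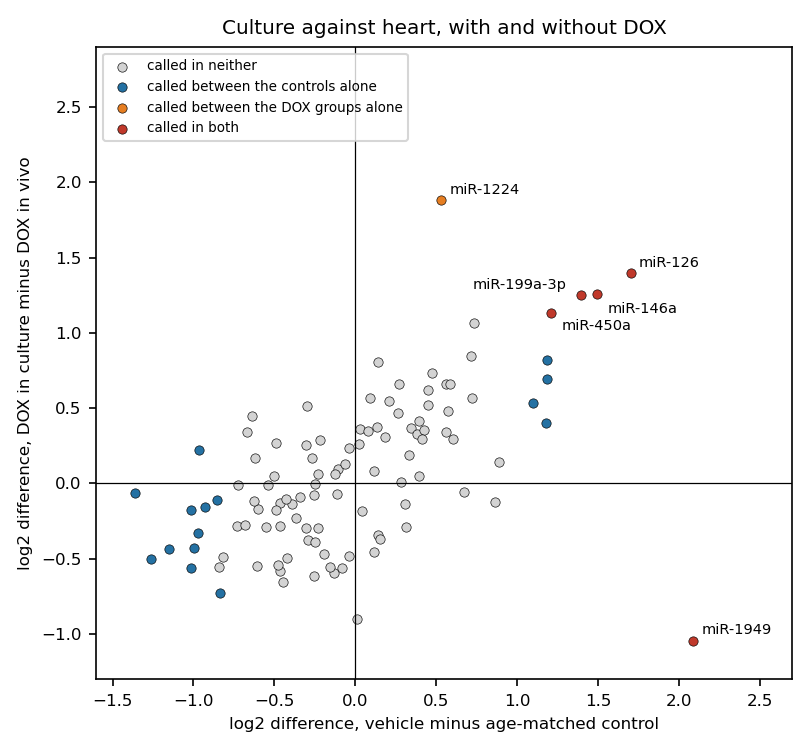
Each point is 1 of the 109 tested miRNAs, with the log2 difference between the exposed groups on the y axis and that between their controls on the x axis. Most points have the same sign on both axes (84 of 109), and miR-1949 lies apart at 2.09 and -1.04.

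Whether DOX changed a miRNA differently in culture and in vivo was tested as the difference of the DOX effects, each against its own control. It was called for 1 miRNA (0.917%), and 10 had an unadjusted p under 0.05. That miRNA was miR-1949, at a log2 difference of -3.13 (95% interval -4.04 to -2.23, adjusted p = 1.37e-05). It fell with DOX in culture (log2 -2.54, adjusted p = 5.98e-07) and was at 0.59 with DOX in vivo (adjusted p = 0.241). Its level was above background in none of the 3 in vitro DOX lanes and in 1 of the 3 age-matched control lanes, so these sizes depend on how background is treated, and the difference of effects was -4.71 after background subtraction. Of the other miRNAs called between the exposed groups, miR-1224 aside, none was called for the difference of effects. It was -0.31 for miR-126 (95% interval -1.18 to 0.57), -0.23 for miR-146a (-1.22 to 0.75) and -0.14 for miR-199a-3p (-0.93 to 0.65). For miR-450a it was -0.08, with the lower end of its interval just inside a 2-fold difference and the upper end at 0.85. A 2-fold difference of effects was thus not excluded for miR-126 or miR-146a. Equal DOX effects in both settings were not shown for any of them. With both settings set against their own controls, 33 miRNAs were called in culture (30.3%), 18 higher (16.5%) and 15 lower (13.8%). In vivo 4 were called (3.67%), 3 higher (2.75%) and 1 lower (0.917%). Only the culture comparison crosses stage positions, and the age-matched control lanes held fewer counts than the vehicle lanes. The numbers called therefore do not rank the DOX effects by size. Without in vitro DOX sample 3 the difference of effects was called for 11 (10.1%), and without that lane and in vivo DOX sample 1 for 14 (12.8%).

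No muscle miRNA was called between the exposed groups, and without miR-208 the other 4 had a median log2 difference of -0.33 and a range of -0.61 to -0.14. For miR-1, which promotes differentiation of muscle cells, the lanes read 246545, 197287 and 259820 CPM in culture and 254879, 303117 and 214751 in vivo. These lanes overlapped, and the difference of -0.14 had a 95% interval of -0.62 to 0.35. For miR-1 and miR-133a the interval, from a spread shared with less variable groups, excluded a 2-fold difference. That of miR-133a was -0.95 to 0.36. Without in vitro DOX sample 3, miR-133a was called at -0.93 (adjusted p = 0.00778). For miR-499, made from an intron of Myh7b, the interval was -1.64 to 0.90. The lanes of miR-499 read 10048, 8751 and 43965 CPM in culture and 51535, 16059 and 13525 in vivo. The spread of miR-499 within each group was thus larger than the difference between the groups. miR-206 of skeletal muscle was above background in none of the 6 lanes.

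The miR-29 family represses collagen mRNAs, and the miR-30 family represses the matrix factor Ctgf in the heart. Their members share a seed within each family, as these RefSeq sequences show with the seed in capitals.
miR-29a: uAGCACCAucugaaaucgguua
miR-29b: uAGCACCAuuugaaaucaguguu
miR-30a: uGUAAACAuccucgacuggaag
miR-30e: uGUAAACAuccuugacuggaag
Neither family had a member called between the exposed groups. The level of miR-29a was 22430, 16623 and 40860 CPM in culture and 79891, 34024 and 35274 in vivo, with a log2 difference of -0.90 (95% interval -1.56 to -0.25, adjusted p = 0.12). The level of miR-29b was 640, 675 and 4682 CPM in culture and 4110, 1152 and 1246 in vivo. In each group of miR-29b 1 lane was over 3-fold above the others, and the interval of its difference ran from -1.70 to 1.45. The highest lane of each group was the same for miR-30a, at 1100, 802 and 3828 CPM in culture and 3333, 1125 and 1479 in vivo. For miR-30e, above background in 1 lane of each group, the lanes read 213, 140 and 1306 against 881, 192 and 399 CPM. Over the 5 tested miR-30 members the differences ranged from -0.58 to 0.14, and no member of either family had an interval within 2-fold.

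The same families behaved as follows against their own controls. All 3 miR-29 members fell with DOX in culture, at log2 changes of -1.44 for miR-29a, -2.82 for miR-29b and -2.09 for miR-29c. In vivo the values were -0.53, -1.83 and -1.49, with no member called. Of the miR-30 members, 3 of 5 fell in culture, where 13.8% of all tested miRNAs did, and 0 of 5 in vivo, where 0.917% did. In vivo miR-30a was at -1.63 (adjusted p = 0.0847) and the median of the 5 was -0.72. Over all lanes the difference of DOX effects was called for no member of either family. It ranged from -0.99 to -0.60 for miR-29 and from -0.75 to 0.06 for miR-30. Without in vitro DOX sample 3 it was called for miR-29a, miR-29b, miR-29c, miR-30a and miR-30e, and so it was with in vivo DOX sample 1 left out as well. The let-7 family, which represses Hmga2 and Lin28, had 5 of 8 tested members higher with DOX in culture (16.5% of all tested) and 3 of 8 in vivo (2.75% of all tested). Between the exposed groups no let-7 member was called, 6 of 8 had an interval within 2-fold, and the range was -0.29 to 0.52.

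The remaining lists also had no call between the exposed groups. The miR-15 family, regulators of the cell cycle, ranged from 0.08 to 1.06 over 4 tested members, the highest being miR-195. Its lanes read 1650, 1401 and 543 CPM in culture and 561, 507 and 648 in vivo, so that 2 culture lanes were high and 1 was not, and the adjusted p was 0.0718. The miR-23/24/27 cluster ranged from 0.05 to 0.66, with 3 of 5 intervals within 2-fold, and miR-99a, miR-99b, miR-100, miR-125a-5p and miR-125b-5p from -0.37 to 0.51, with 4 of 5. The miR-17-92 cluster and its paralogs ranged from -0.01 to 0.48 over 6 tested probes. Of the p53-responsive miRNAs, 2 were tested, with miR-34a at -0.47 and miR-194 at -0.28, each above background in only 1 of the 6 lanes. The hypoxia miRNA miR-210, above background in 2 of the 6, was at -0.34 (95% interval -1.06 to 0.38).

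**Figure D4:**
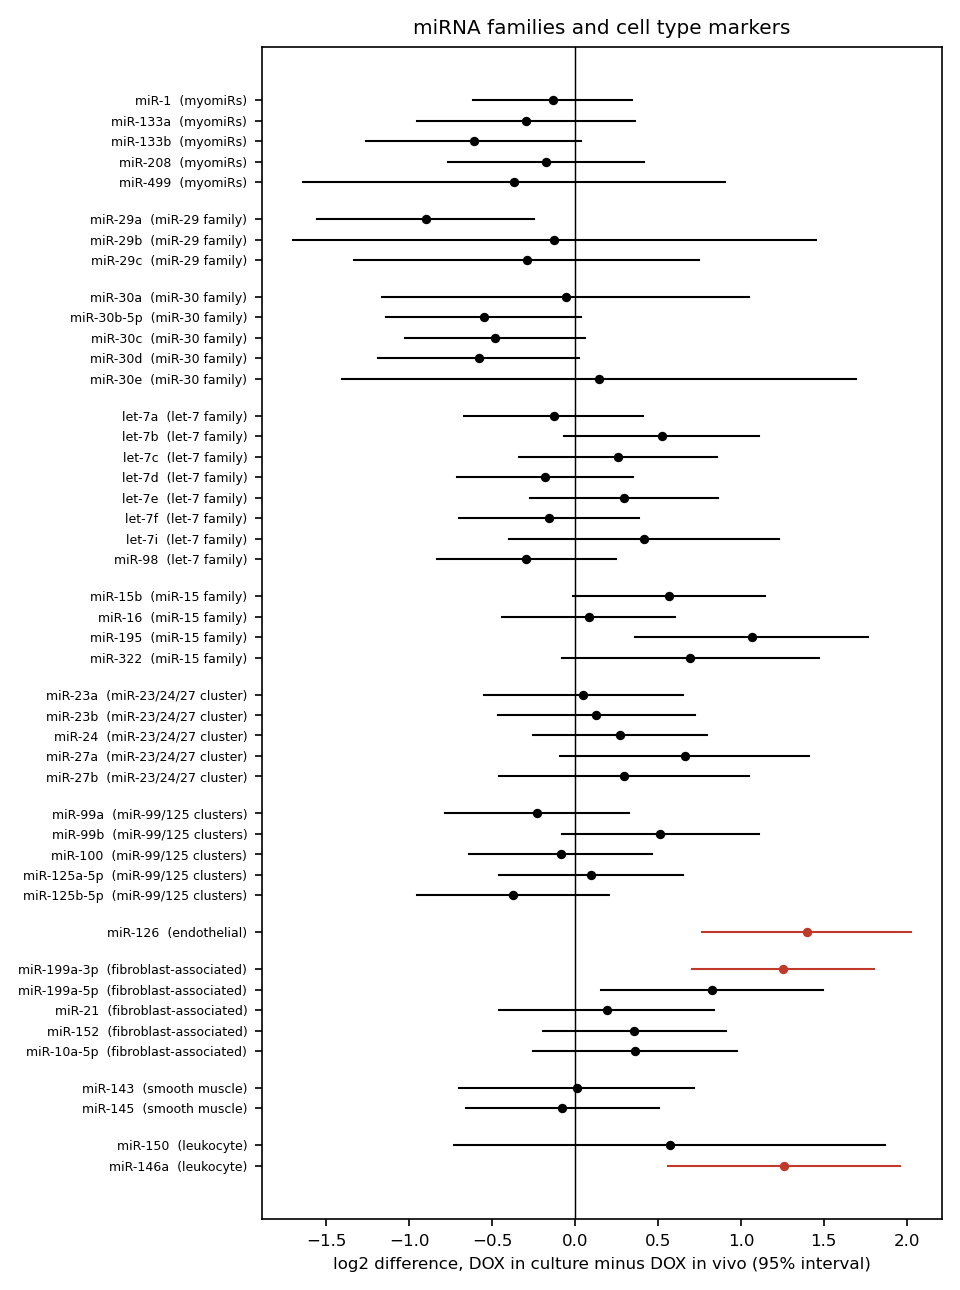
Log2 difference (DOX in culture minus DOX in vivo) with its 95% interval for tested members of the muscle, family and cell type lists, red where called. Only miR-126, miR-199a-3p and miR-146a are red, miR-29b spans -1.70 to 1.45, and miR-208 is a probe that the authors marked for background.

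The spread within the exposed groups was larger than that of their controls. Over the 64 miRNAs above background in all 6 exposed lanes, the median SD of log2 CPM was 0.46 after DOX in culture, 0.40 after DOX in vivo, 0.08 for vehicle and 0.14 for age-matched controls. Of the 83 miRNAs above background in at least 3 of the 6 exposed lanes, 14 differed over 3-fold between in vitro DOX lanes and 5 between in vivo DOX lanes. None of the 83 did so among the vehicle or the age-matched control lanes. In 11 of the 14, in vitro DOX sample 3 was the highest lane of its group and in vivo DOX sample 1 the highest of its own. These 14 were picked by their spread after the values were seen. The deviations of these 2 lanes from their group means correlated at r = 0.70 across the 109 miRNAs, a description of lanes whose deviations are bound to sum to 0 within a group.

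**Figure D5:**
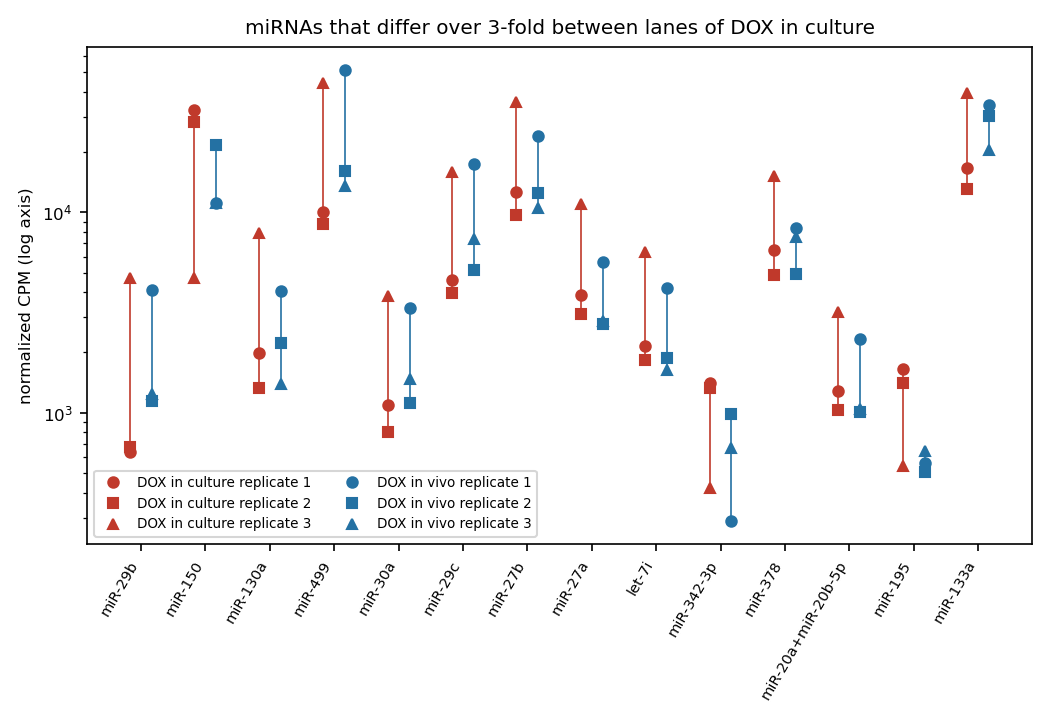
Normalized CPM on a log axis for the 14 miRNAs that differ over 3-fold between lanes of DOX in culture, with 1 symbol per replicate and a line from the lowest to the highest lane. In 11 of the 14, replicate 3 in culture and replicate 1 in vivo are the highest lanes, as for miR-29b at 4682 and 4110 CPM.

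Without in vitro DOX sample 3, 26 miRNAs were called between the exposed groups (23.9%), 13 higher and 13 lower in culture. The 6 called over all lanes were among them. The 20 others included 14 list members, which were miR-29a, miR-29b, miR-29c, miR-30a, miR-30c, miR-30d, miR-30e, miR-499, miR-133a and miR-210 on the lower side, and miR-150, miR-195, miR-99b and let-7b on the higher side. The value of miR-30e was -1.53 (adjusted p = 0.0245), where it was 0.14 with all lanes. The difference of miR-29a was then -1.35 (adjusted p = 0.000391) and that of miR-499 -1.53 (adjusted p = 0.00778). With in vivo DOX sample 1 left out as well, 14 were called (12.8%), 7 in each direction. The 6 were again among them, miR-29a was at -0.83 (adjusted p = 0.0011), miR-499 at -0.65 (adjusted p = 0.00921), and miR-29b and miR-30a were not called. Only miR-1224 kept its call in all 20 alternatives run for it. A filter of miRNAs above background in all 6 exposed lanes removed it, so it was not tested there. The filter of 3 of the 6 exposed lanes admitted it only through the culture lanes, where it was high, so that fit is not separate support.

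The authors' deposited tables give quantile-normalized group means, which were not tested. In the authors' deposited tables the mean of miR-1224 was 101 after DOX in culture and 26.7 after DOX in vivo. By the ratio of these means miR-1224 ranked 2 of 109 in the authors' deposited tables, behind miR-290 at 95.6 and 13.3. The probe of miR-290 is another that the authors marked, and after their correction it stood at 1 in in vitro DOX samples 1 and 2 and at 342 in sample 3. The sign of the difference was that of the count model for 101 of 109 miRNAs, and for all 6 called ones, when the authors' deposited means of both exposed groups were set side by side. The means come from separate tables, and the highest mean was 20341 in each.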

How the data were processed

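The authors deposited a worksheet of nCounter data for 15 samples. Its first sheet holds whole barcode counts per probe, which are direct counts. The second deposited sheet differs in 3 marked probes, where the authors subtracted a probe background, per the file headers. These corrected values need not be whole and were rounded for the fit, so the authors' corrected values are treated in the manner of estimated counts. A further sheet holds signal that the authors scaled by positive controls and by the sum of miRNA counts, and the authors' group means after quantile normalization are signal too. For the software, a name is not given in the sources used.

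The uncorrected counts of miRNAs above lane background in at least 3 lanes were fitted with edgeR 4.0.16 under R 4.3.3 (TMM, robust quasi-likelihood, 1 mean per group over all 15 samples, among them 3 from hearts 4 weeks after myocardial infarction). Adjusted p-values are Benjamini-Hochberg over the 109 miRNAs, SE and 95% intervals come from the same model, and a call is an adjusted p under 0.05. DESeq2 1.42.0, limma 3.58.1 on log2(signal + 1), other scalings, filters and lane sets were alternatives.

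The miRNAs named are up to 12 called in each direction whose lanes do not overlap, and every measured member of lists of muscle miRNAs, families and cell type markers. Members and lists were chosen with earlier results of these data known. Same-numbered samples of the exposed groups showed no regular pairing: their deviations from group means correlated at -0.52, 0.50 and -0.40. Because deviations sum to 0 within a group and 1 lane of each group stood apart, these values cannot exclude pairing. Pairing of in vitro DOX with vehicle samples was not tested.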

Additional observations from a re-analysis of the deposited data

Results flagged for a closer look

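The DOX effect on miR-1949 in culture differed from that in vivo by a log2 value of -3.13 (edgeR adjusted p = 1.37e-05), by the test of the difference itself. Because its level after DOX in culture was below background, the size depends on how background and scaling are treated, and it was -4.71 after background subtraction, -3.92 without a filter and -2.77 with housekeeping scaling. It fell in culture from 1731 ± 105 CPM in vehicle to 293 ± 77.6 (SD, n = 3 each), below lane background, and read 416 ± 126 in age-matched controls and 608 ± 84.2 after DOX in vivo. The vehicle lanes, not the exposed ones, stood farthest from the other groups. The in vitro DOX lanes were on another cartridge than vehicle, so that cartridge and DOX in culture cannot be told apart.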

How the results depend on the processing

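Between the exposed groups 6 miRNAs were called, and 5 to 9 were called under DESeq2, RLE factors, no TMM, a filter of 3 of the 6 exposed lanes, background subtraction, the authors' corrected counts, limma, the fit without the robust option and the replicate block. The count was 1 with positive-control scaling, 1 with housekeeping scaling, 1 without a filter, 3 with miRNAs above background in all 6 lanes, 2 in the fit of the compared groups alone, 2 to 26 when 1 lane was left out, and 14 without in vitro DOX 3 and in vivo DOX 1. With the replicate block it was 6, with 19 between the controls and 1 for the difference of DOX effects. No regular pairing of the exposed groups by sample number was seen, though the correlations of deviations cannot exclude it. Between the controls 20 were called, 10 with RLE factors, 4 with miRNAs above background in all 6 lanes, 7 after background subtraction, 67 in the fit of those groups alone and 4 to 18 without 1 lane. For the difference of DOX effects 1 was called, 2 without a filter, and 0 where the filter on the 6 exposed lanes removed miR-1949 (2 unadjusted with all 6 lanes, 9 with 3 of 6). It was 1 to 11 without 1 lane and 14 without both lanes. The sign of the 6 called differences was kept in all 122 recomputed values, 87 of them past the threshold. These were 20 of 20 for miR-1224 (log2 1.75 to 3.40), 17 of 21 for miR-126 and for miR-199a-3p, 14 of 21 for miR-146a, 13 of 20 for miR-450a and 6 of 19 for miR-1949. Where fewer than 21 were run, a filter had removed the miRNA. The filter of 3 of the 6 exposed lanes kept miR-1224 only through its culture lanes.

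Of 1175 recomputed single values over 57 miRNAs, 73 changed sign, in 25 miRNAs that were not called over all lanes, and 1 of the 73 was itself called, miR-30e without in vitro DOX 3. The cause was not tested. The difference of miR-143 became -0.068 in DESeq2 and with RLE factors, -0.0084 without TMM, -0.10 with housekeeping scaling and without a filter, -0.035 with all 6 lanes above background, -0.028 with the corrected counts, and -0.0050 without both lanes. That of miR-23a became -0.017 in DESeq2 and with RLE factors, -0.051 with positive-control scaling, -0.054 without a filter, and -0.041 with the corrected counts. That of miR-17-5p became 0.066 with positive-control scaling, 0.024 with 3 of 6 lanes, 0.087 after background subtraction and 0.0051 in the compared groups alone. That of miR-16 became -0.00015 with positive-control scaling and -0.040 without a filter. That of miR-30a became 0.019 with positive-control scaling and 0.046 after background subtraction. After that subtraction miR-100 was at 0.033 and miR-145 at 0.045. The value of miR-30e was -0.0023 with housekeeping scaling, -0.24 in limma and -0.69 without both lanes, where let-7f was at 0.033, miR-125a-5p at -0.13 and miR-27b at -0.039.

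Leaving out 1 lane gave ranges that cross 0 for 24 miRNAs. They were -0.37 to 0.021 for let-7a, -0.078 to 0.53 for let-7c, -0.29 to 0.0031 for let-7d and -0.38 to 0.97 for let-7i. They were -1.75 to 0.74 for miR-29b, -1.23 to 0.39 for miR-29c, -1.07 to 0.56 for miR-30a, -1.53 to 0.96 for miR-30e and -1.53 to 0.50 for miR-499. They were -0.40 to 0.39 for miR-143, -0.33 to 0.19 for miR-145, -0.12 to 0.71 for miR-21 and -0.45 to 0.12 for miR-208. They were -0.16 to 0.40 for miR-23a, -0.18 to 0.43 for miR-23b, -0.13 to 1.08 for miR-27a and -0.49 to 0.75 for miR-27b. They were -0.031 to 0.21 for miR-16, -0.32 to 0.14 for miR-17-5p, -0.034 to 0.90 for miR-19b and -0.36 to 0.84 for miR-20a+miR-20b-5p. They were -0.26 to 0.21 for miR-100, -0.13 to 0.43 for miR-125a-5p and -0.91 to 0.10 for miR-34a.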
